A study of Mus musculus with 6 samples.

Results

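The nuclear genes for the subunits of oxidative phosphorylation were measured in mouse pancreatic islets in which Nkx6-1, a transcription factor gene of beta cells, was targeted for deletion after birth. They were taken as every array probe, control spots aside, whose gene name begins with Nduf followed by a subunit letter and a digit, is Sdha to Sdhd, or begins with Uqcr, Cox4 to Cox8 or Atp5. The names Cox6a2, Cox6a1, Cox4i1, Cox4i2, Cox7a1, Cox7a2, Cox8a, Cox8b and Cox6b2 were left out. This gave 74 gene names with 102 probes, of 31829 gene names and 39429 probes on the array. By complex they were 37 names for complex I, 4 for complex II, 7 for complex III, 10 for complex IV and 16 for complex V.

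The mutant animals were Nkx6.1fl/-;Pdx1-CreERTM, with 1 floxed and 1 null allele, and their control littermates were Nkx6.1fl/+;Pdx1-CreERTM, with 1 floxed and 1 wild-type allele, so that both groups carried a floxed allele and the inducible Cre. All were males of a mixed background (FVB/N, C57Bl/6J and Cd1) and all received tamoxifen, 2 mg per 25 g of body weight, 4 times from 4 weeks of age, and islets were taken at 6 weeks. There were 3 mutant and 3 control samples, each of RNA from 2 pancreata of 1 genotype, given as biological replicates. The Pdx1-CreERTM transgene recombines in cells that express Pdx1, chiefly beta cells, so the other cells of an islet keep the floxed allele, while the null allele is in every cell of the mutants. The floxed allele of the controls is open to the same recombination, so recombined control cells are left with the wild-type allele alone. In bulk RNA, fewer cells of a type and less RNA per cell cannot be told apart.

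Oxidative phosphorylation moves electrons from NADH and succinate through complexes I to IV to oxygen and uses the proton gradient so made to drive ATP synthase, complex V. In beta cells the ATP from this pathway closes potassium channels and triggers insulin release, so its capacity bears on glucose-stimulated secretion. Most subunits are encoded in the nucleus and are assembled with a few encoded by mitochondrial DNA.

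Each RNA sample was labelled with Cy3 and read on 1 single-colour Agilent array. Levels are given as normalised log2 signal, the log2 of the background-corrected intensity minus the 75th percentile of the array, and differences are mutant minus control on that log2 scale, with the standard error (SE) of the limma fit over 22775 gene names and n = 3 arrays per group. The share of probes well above background was 63.8% to 74.4% on mutant arrays and 73.4% to 76.3% on control arrays. The arrays lay on 2 slides, slide 1 with mutants 2 and 3 and control 1, and slide 2 with mutant 1 and controls 2 and 3, and each slide was scanned in a session of its own. All 10 islet endocrine markers were well above background on every array. The targeted gene, Nkx6-1, had a normalised log2 signal of 4.38, 4.13 and 4.52 in mutants 1 to 3, against 4.87, 4.92 and 4.72 in controls 1 to 3. The mutant arrays were all lower, by a log2 difference of -0.49 (SE 0.14), which missed the threshold (limma, adjusted p = 0.126). Its single probe lies at chr5:102088319-102088378 (mm9), and whether that stretch is within the deleted part is not given in the sources used here.

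None of the 72 tested members was called as changed. Of the 74 names, 72 were tested, and all 72 were well above background on all 6 arrays. At an adjusted p under 0.05 (limma, Benjamini-Hochberg over all gene names tested), 0 of 72 members were called, where 2.56% of all gene names were called, 1.38% higher in mutants and 1.19% lower. At an unadjusted p under 0.05 the count of members was again 0, where 20.2% of all gene names passed. With slide as a block, limma called 0 of 72 members beside 2.99% of all gene names, and 6 members had an unadjusted p under 0.05 beside 22.2% of all gene names. Those 6 were Ndufa1, Ndufb11, Atp5e, Ndufa8, Ndufa4 and Ndufa7, named here because their number is small. In the 22 other fits that were run, 0 members were called and the lowest adjusted p was 0.103. The 2 untested names were Cox7b2 and Cox8c, isoforms of cytochrome oxidase known in humans from testis. Cox7b2 was well above background on 1 array and Cox8c on 0 arrays.

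The members' differences were small. Their log2 differences ran between -0.21 for Ndufa7 and 0.53 for Ndufa1, a span inside the central 95% of all gene names, which ran between -0.97 and 1.01. The median member differed by 0.09 and the median gene name by -0.03. Of the 72 members, 56 had a positive difference and 16 a negative one, where 45.6% of all gene names were positive. The number of positive members moved with the scaling and the model. It was 59 with scaling to the median, with a median difference of 0.12, and 40 after quantile normalisation, with a median of 0.02. With slide as a block it was 38, with a median of 0.003. The mutant and control arrays did not overlap for 4 members, 5.56% of those tested, where 26.3% of all gene names had groups that did not overlap. Ndufa12 and Cox7a2l were higher on all mutant arrays, and Ndufa7 and Ndufa10 were lower.

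The intervals show which sizes of change were not excluded. The 95% interval of the difference, with no adjustment for the number of genes, lay within 1.5-fold in both directions for 53 of 72 members and within 2-fold for 70. The exceptions at 2-fold were Ndufa1 and Cox7b. By complex, the interval lay within 1.5-fold for 27 of 37 members of complex I, 4 of 4 of complex II, 4 of 7 of complex III, 6 of 8 of complex IV and 12 of 16 of complex V. The median SE was 0.145 over members and 0.163 over all gene names.

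**Figure D1:**
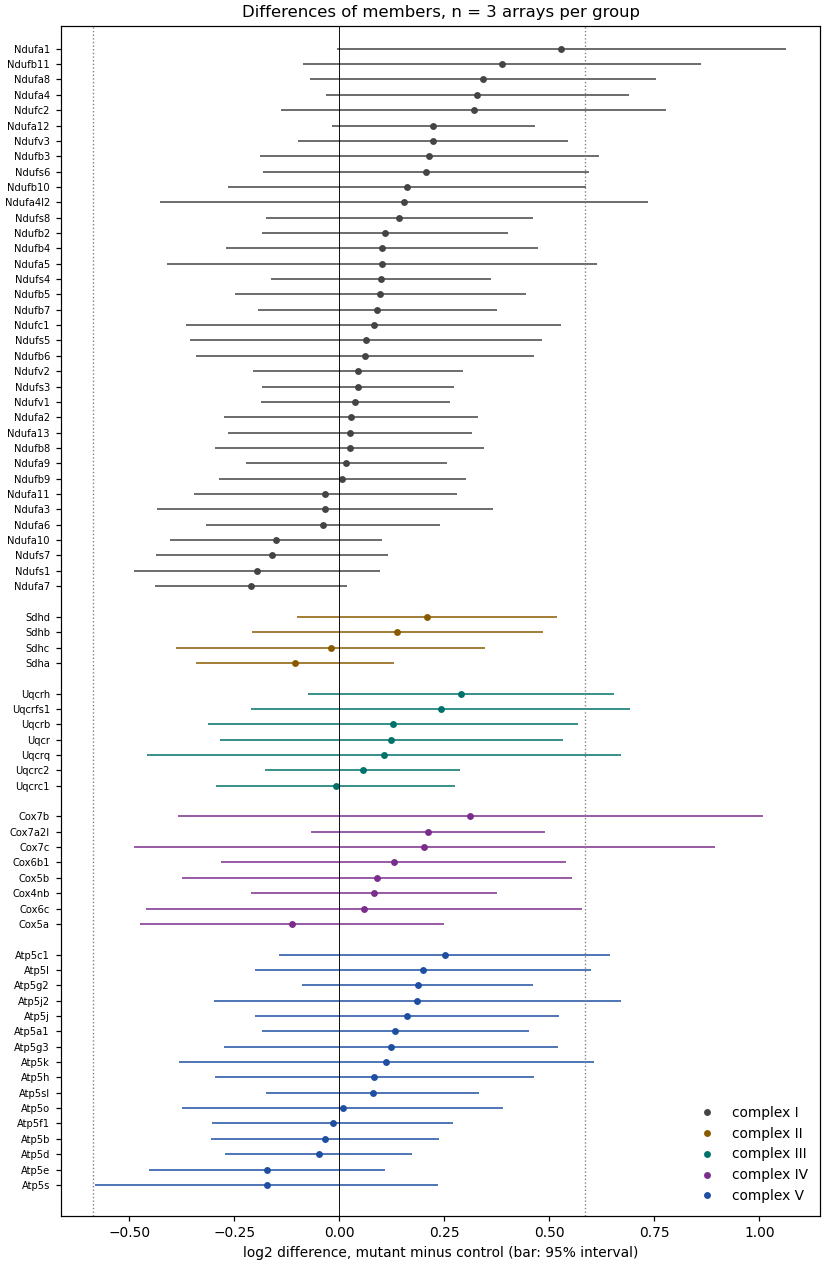
Log2 difference, mutant minus control, for 71 of the tested members by complex (points), with 95% intervals from the limma fit over 3 arrays per group (bars). Dotted lines mark 1.5-fold in either direction, and 52 of the intervals drawn lie between them, with Ndufa1 at 0.53 the highest point and Ndufa7 at -0.21 the lowest.

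Complex I oxidises NADH and hands the electrons to ubiquinone. Its nuclear genes comprise the catalytic core, which holds the flavin and the iron-sulphur clusters, and many accessory subunits that build and stabilise the enzyme. The median log2 difference over the 37 names was 0.08, with 30 positive and 7 negative. The 7 core genes lay between -0.20 for Ndufs1 and 0.14 for Ndufs8, with a median of 0.04. The 28 accessory genes spanned the whole range of the members, with a median of 0.09. Core and accessory genes were divided after the values had been seen.

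Ndufa1, a small membrane subunit needed for assembly of the complex, had the largest difference of all members. Its normalised log2 signal was 5.54, 6.16 and 6.18 in mutants 1 to 3, against 5.69, 5.27 and 5.34 in controls 1 to 3. Mutants 2 and 3 were above every control, but mutant 1 was below control 1, so the groups overlapped. The log2 difference was 0.53 (SE 0.22, 95% interval -0.01 to 1.06, limma adjusted p = 0.252), and it was 0.36 with slide as a block (limma adjusted p = 0.126).

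Ndufa12, an accessory subunit of the matrix arm, had 3.85, 3.98 and 3.96 in mutants 1 to 3, against 3.73, 3.75 and 3.63 in controls 1 to 3, in normalised log2 signal. Every mutant array was above every control array, by a difference of 0.22 (SE 0.10) that missed the threshold (limma, adjusted p = 0.278). Ndufa7, another accessory subunit of that arm, had 4.24, 4.33 and 4.30 in mutants 1 to 3, against 4.49, 4.55 and 4.45 in controls 1 to 3. Here every mutant array was lower, by a difference of -0.21 (SE 0.09, limma adjusted p = 0.282). Ndufa10, an accessory subunit related to nucleoside kinases, had 1.3627, 1.2496 and 1.357 in mutants 1 to 3, against 1.3661, 1.496 and 1.559 in controls 1 to 3. Its groups were separated only by the gap between mutant 1 and control 1, and the difference was -0.15 (SE 0.10, limma adjusted p = 0.460).

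The levels of these 4 genes rest on single probes, which are printed because no second probe reads these genes, and the first 30 of their 60 bases are given. Positions are those of the files (mm9), and chr1:94361039-94363996 for Ndufa10 is longer than the probe.
Ndufa1, chrX:34727627-34727686, minus strand: attactcagctatggtcatctgttcctgtt
Ndufa12, chr10:93683562-93683621, plus strand: aagaagattcatgaatgggttccacctttg
Ndufa7, chr17:33975141-33975200, plus strand: cctaggttaccttgctatatatgtctctag
Ndufa10, chr1:94361039-94363996, minus strand: tggaggcaatgtacaaccagggctatatcc

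Ndufb11, an accessory subunit of the membrane arm, had the second largest difference. Its normalised log2 signal was 5.54, 5.97 and 6.06 in mutants 1 to 3, against 5.75, 5.32 and 5.34 in controls 1 to 3, and the groups overlapped at mutant 1 and control 1. The log2 difference was 0.39 (SE 0.19, limma adjusted p = 0.328), and 0.24 with slide as a block (limma adjusted p = 0.180). The size depended on the probe. Both probes at the end of the gene, which share 55 of 60 bases, gave 0.41 and 0.39. The third, at chrX:20194630-20194689 (mm9), gave 0.04 at a far lower signal. It had -1.55, -1.59 and -1.96 in mutants 1 to 3, against -1.66, -1.77 and -1.81 in controls 1 to 3. The first 30 bases of all 3 probes are shown to make the overlap of the first 2 visible, with their common bases in capitals.
Ndufb11, chrX:20192448-20192507, minus strand: CGCTGCTTGTTATTTACCTGGTTCCTCAGA
Ndufb11, chrX:20192453-20192512, minus strand: tcatcCGCTGCTTGTTATTTACCTGGTTCC
Ndufb11, chrX:20194630-20194689, minus strand: ttccctacagggccatctagatgtcaccgc

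Across the members, 21 names had several tested probes, and their differences spanned a median of 0.08 within a name. Ndufb11 had the widest span, 0.36, and Cox7c followed with probes between 0.09 and 0.39. The Cox7c probe at 0.39 was far dimmer than its other probes. It had -4.36, -3.85 and -3.57 in mutants 1 to 3, against -3.99, -4.51 and -4.47 in controls 1 to 3. Next was Sdhc, with probes at -0.28 and -0.02. Only Ndufb5 had probes of opposite sign, -0.09 and 0.10. Of the 100 member probes tested singly, 0 were called, where 801 of 28361 probes of all genes were called.

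Other complex I genes with values at the edges were Ndufa8 (0.34), Ndufa4 (0.33) and Ndufc2 (0.32) on the positive side and Ndufs1 (-0.20) and Ndufs7 (-0.16) on the negative side, with limma adjusted p-values of 0.284 to 0.469. Ndufs1 carries several of the iron-sulphur clusters. Its normalised log2 signal was 3.497, 3.301 and 3.204 in mutants 1 to 3, against 3.439, 3.537 and 3.614 in controls 1 to 3, and the groups overlapped at mutant 1 and control 1. Ndufa4 is counted here by its name, although its product is a subunit of complex IV. Ndufa4l2 is a paralogue of Ndufa4 known as a target of hypoxia signalling and not a standard subunit, and its difference was 0.15 (SE 0.24).

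Complex II oxidises succinate and joins the citric acid cycle to the chain. All 4 of its genes were tested, with differences of -0.11 for Sdha, the flavoprotein, -0.02 for Sdhc, a membrane anchor, 0.14 for Sdhb, the iron-sulphur subunit, and 0.21 for Sdhd, the other anchor. Sdhd had a normalised log2 signal of 4.13, 4.37 and 4.29 in mutants 1 to 3, against 4.23, 3.93 and 4.01 in controls 1 to 3. Its groups overlapped at mutant 1 and control 1 (SE 0.13, limma adjusted p = 0.410). Sdha had 3.86, 3.71 and 3.76 in mutants 1 to 3, against 3.93, 3.84 and 3.88 in controls 1 to 3, and mutant 1 lay among the controls (SE 0.10, limma adjusted p = 0.577). The intervals of all 4 lay within 1.5-fold on the probe that stood for each gene. A second, dimmer Sdhc probe gave -0.28 (SE 0.16). It had 2.56, 2.32 and 2.32 in mutants 1 to 3, against 2.39, 2.79 and 2.84 in controls 1 to 3. On that probe the arrays of slide 1 were all below those of slide 2.

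Complex III passes electrons from ubiquinol to cytochrome c. The median over its 7 names was 0.12, with 6 positive. Uqcrh, the acidic hinge subunit that meets cytochrome c, had 4.98, 5.38 and 5.35 in mutants 1 to 3, against 5.08, 4.85 and 4.91 in controls 1 to 3, and mutant 1 was below control 1. Its difference was 0.29 (SE 0.15, limma adjusted p = 0.338). Uqcrfs1, the Rieske iron-sulphur protein, had 3.66, 3.97 and 3.95 in mutants 1 to 3, against 3.96, 3.40 and 3.49 in controls 1 to 3. Control 1 was as high as mutants 2 and 3, and the difference was 0.24 (SE 0.19, limma adjusted p = 0.506). The core proteins Uqcrc1 and Uqcrc2 differed by -0.01 (SE 0.12) and 0.06 (SE 0.10). The small subunits Uqcrq, Uqcr (now Uqcr11) and Uqcrb differed by 0.11, 0.12 and 0.13. The genes Cyc1, for cytochrome c1, and Uqcr10, which the array lists under names outside the rule, differed by -0.07 (SE 0.14) and 0.07 (SE 0.18).

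Complex IV, cytochrome c oxidase, reduces oxygen to water. Of its 10 names 8 were tested, with a median of 0.11 and 7 positive. Cox7a2l, which is not a subunit of the bare enzyme but helps join complexes III and IV into supercomplexes, had 5.83, 6.11 and 5.86 in mutants 1 to 3, against 5.71, 5.73 and 5.73 in controls 1 to 3. All mutant arrays were above all control arrays. The difference was 0.21 (SE 0.11) and missed the threshold (limma, adjusted p = 0.357). Its 3 probes gave differences between 0.12 and 0.21. On the probe at 0.12 the groups overlapped, with 3.95, 3.88 and 3.65 in mutants 1 to 3, against 3.51, 3.79 and 3.83 in controls 1 to 3.

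Cox7b, a small subunit needed for assembly of the oxidase, had 3.11, 3.91 and 3.93 in mutants 1 to 3, against 3.73, 3.11 and 3.17 in controls 1 to 3. Mutant 1 lay with controls 2 and 3, and control 1 lay nearer mutants 2 and 3. The difference was 0.31 (SE 0.29, limma adjusted p = 0.575), and 0.08 with slide as a block. Cox7c, another small subunit, had 3.05, 3.80 and 3.75 in mutants 1 to 3, against 3.79, 3.09 and 3.12 in controls 1 to 3, with the same split of the arrays and a difference of 0.20 (SE 0.28). Cox5a, a matrix-side subunit, had 3.61, 3.77 and 3.97 in mutants 1 to 3, against 4.10, 3.77 and 3.81 in controls 1 to 3, and its groups overlapped (difference -0.11, SE 0.15, limma adjusted p = 0.697). Cox5b, Cox6b1 and Cox6c differed by 0.09, 0.13 and 0.06. Cox4nb, which RefSeq now names Emc8 and which encodes a protein of the endoplasmic reticulum, is no oxidase subunit, and it differed by 0.08.

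Complex V, ATP synthase, has the catalytic F1 head, whose subunits are encoded by Atp5a1, Atp5b, Atp5c1, Atp5d and Atp5e, and a membrane part with a rotating ring and stalks. The median over its 16 names was 0.10, with 11 positive. The 5 F1 genes had a median of -0.03 and the 9 genes of the membrane part and stalks one of 0.12, a division made after the values had been seen. Atp5c1, for the central stalk subunit gamma, had 4.59, 4.94 and 5.11 in mutants 1 to 3, against 4.76, 4.56 and 4.57 in controls 1 to 3. Its groups overlapped at mutant 1 and control 1, and the difference was 0.25 (SE 0.16, limma adjusted p = 0.431). Atp5e, for the epsilon subunit, had 4.793, 5.035 and 4.972 in mutants 1 to 3, against 5.213, 5.073 and 5.029 in controls 1 to 3, and mutant 2 lay just above control 3 (difference -0.17, SE 0.12, limma adjusted p = 0.449).

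Atp5g2, which encodes the c subunit of the ring, had 5.91, 6.12 and 6.11 in mutants 1 to 3, against 5.96, 5.79 and 5.82 in controls 1 to 3, with mutant 1 below control 1 (difference 0.19, SE 0.11, limma adjusted p = 0.406). Its paralogues Atp5g3 and Atp5g1, the second read by a probe under another name, differed by 0.12 (SE 0.16) and 0.18 (SE 0.16). The catalytic beta subunit, Atp5b, differed by -0.03 (SE 0.11) and the alpha subunit, Atp5a1, by 0.13 (SE 0.13). Atp5s and Atp5sl, now Dmac2l and Dmac2, carry the name without being standard subunits. Atp5s had -2.61, -2.64 and -2.60 in mutants 1 to 3, against -2.79, -2.21 and -2.33 in controls 1 to 3, so that control 1 was lowest of all (difference -0.17, SE 0.17, limma adjusted p = 0.596).

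**Figure D2:**
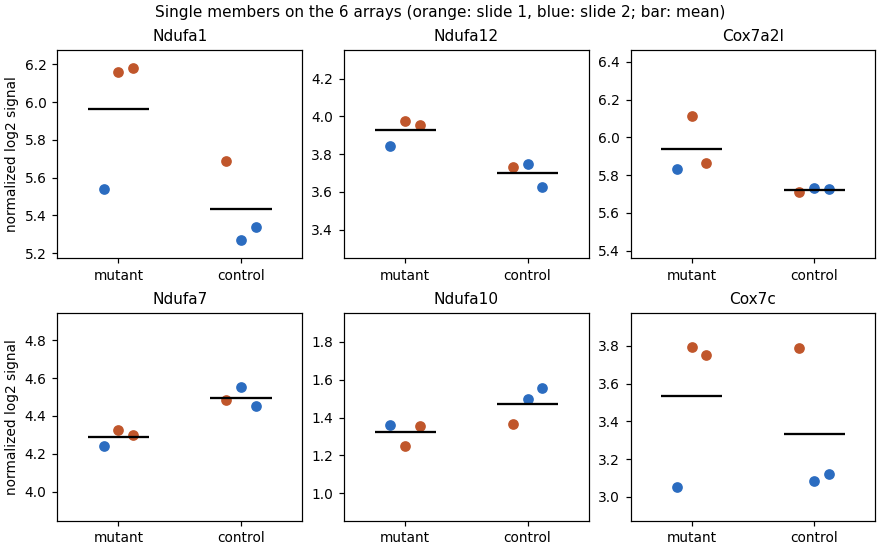
Normalised log2 signal of 6 members on each array, mutants left of controls, with group means as bars and slide by colour, every panel spanning the same range. Ndufa12 and Cox7a2l are higher and Ndufa7 and Ndufa10 lower on all mutant arrays, in Cox7c mutant 1 sits with controls 2 and 3, and in Ndufa1 mutant 1 lies between control 1 and the other controls.

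The members' median difference was larger between slides than between genotypes. On slide 1 all 3 arrays were above all 3 arrays of slide 2 in 50 of 72 members, 69.4%, where 13.4% of all gene names did so. Before scaling, the 75th percentile of log2 signal was 10.825 in control 1 and 10.775 and 10.599 in mutants 2 and 3, on slide 1. It was 11.167 in mutant 1 and 11.200 and 11.272 in controls 2 and 3, on slide 2. Most members were brighter than that percentile, while all gene names cover every brightness. Slide differences were taken under this scaling only, and the part of signal level in them was not tested. The reverse held for 1 member, Ndufs1, where 14.7% of all gene names did so. The slide 1 minus slide 2 difference had a median of 0.24 over members and 0.002 over all gene names, and it was positive in 67 members, where 50.2% of all gene names were positive. By complex, the arrays of slide 1 were all above those of slide 2 in 24 of 37 names of complex I, 3 of 4 of complex II, 6 of 7 of complex III, 6 of 8 of complex IV and 11 of 16 of complex V. It was so in 8 of 9 genes of the membrane part and stalks of ATP synthase and in 3 of 7 core genes of complex I. Sdhc was counted on its brighter probe, and its other probe had the reverse order.

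Single slide differences seldom passed a test. The slide term was called for 1 member, Cox7c, at 0.70 (limma, adjusted p = 0.0461), where 0.742% of all gene names were called. The pattern was a small shift of many genes together. The median deviation of the members from their own mean over the 6 arrays was -0.15, 0.16 and 0.14 in mutants 1 to 3, and 0.08, -0.11 and -0.12 in controls 1 to 3. For all gene names these medians lay between -0.04 and 0.03. The mean deviation of the 10 islet endocrine markers ran the same way, at -0.26, 0.23 and 0.43 in mutants 1 to 3, and 0.19, -0.25 and -0.33 in controls 1 to 3. The 13 exocrine acinar markers had -1.17, 0.70 and 1.46 in mutants 1 to 3, and -0.61, -0.38 and -0.001 in controls 1 to 3. The summed relative signal of the endocrine list was 2170 to 3500 in mutants and 2050 to 2960 in controls, and that of the acinar list 787 to 4440 in mutants and 1160 to 1760 in controls. All genes of both lists were well above background on every array. Of the other 6 marker lists, the 6 mesenchyme markers had mean deviations of 0.17, 0.34 and 0.07 in mutants 1 to 3, and 0.50, -0.36 and -0.72 in controls 1 to 3. The 6 leukocyte markers had a summed relative signal of 11 to 11.3 in mutants and 12.2 to 17.8 in controls. No marker of the 8 lists was called, and the part of any list in the members' values was not tested. Slide and scanning session cannot be told apart.

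**Figure D3:**
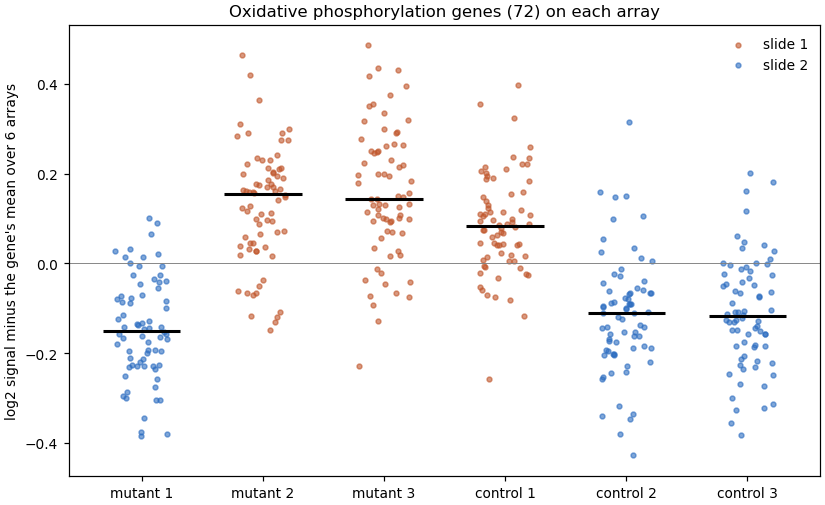
Deviation of each of the 72 members from its own mean over the 6 arrays (points, log2), by array, coloured by slide, with the median of the members as a bar. The medians of mutants 2 and 3 and control 1, on slide 1, are 0.16, 0.14 and 0.08, and those of mutant 1 and controls 2 and 3, on slide 2, are -0.15, -0.11 and -0.12.

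Within slides the comparison of mutant and control arrays had no common direction. The median member difference was 0.04 within slide 1 and -0.04 within slide 2, and 18 members were positive on both slides, 15 negative on both and 39 of opposite sign. Of all 22775 gene names, 6155 were positive on both, 8102 negative on both and 8518 of opposite sign. With slide as a block, the complex medians were 0.003, -0.03, 0.004, -0.01 and -0.01 for complexes I to V. Ndufa1 was positive on both slides, at 0.48 and 0.24, and Ndufa7 negative on both. Since 2 mutant arrays and 1 control array lay on slide 1, the unblocked difference of a member holds a part of its slide difference.

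**Figure D4:**
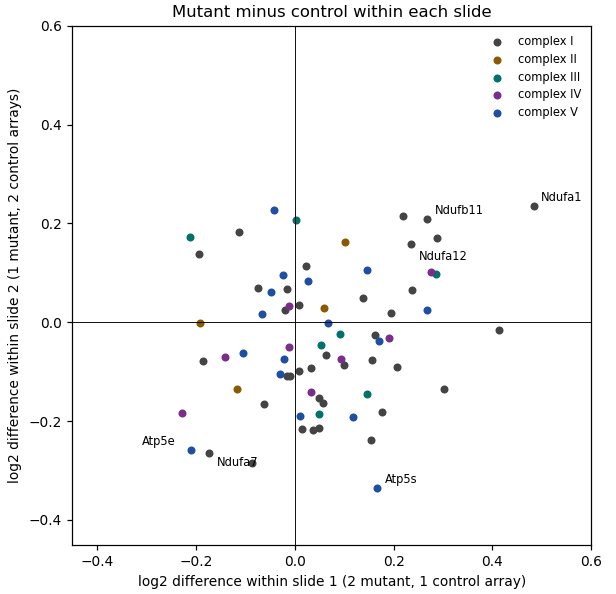
Log2 difference, mutant minus control, within slide 1 (horizontal) and within slide 2 (vertical) for the 72 members, coloured by complex. The members lie on all sides of zero, 39 of them with opposite signs on the slides, and Ndufa1 at 0.48 and 0.24 is farthest to the upper right.

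Many promoters of these genes hold sequence features known for the nuclear control of respiration. Nuclear respiratory factor 1 (NRF1), the ETS factor GABP and YY1 are textbook activators of respiratory chain genes. RefSeq promoters (GRCm38.p6, 250 bases before to 50 after the start) matched 61 members by symbol, and both strands were searched. The letters CGCNTGCG for NRF1 stood in 24 of 61 promoters, 39.3%, where 9.22% of 27025 genes had them. The ETS letters CCGGAAG stood in 14, 23% against 9.93%, and the YY1 letters AAGATGGCG in 8, 13.1% against 1.64%. Some motif of the 3 stood in 37 promoters, 60.7% against 18.3%. A match is a description of these letters and not a bound site, and the genes compared were not matched for base content or expression. The median difference, mutant minus control, was 0.11 for members with the NRF1 letters and 0.09 for those without, 0.13 and 0.09 for ETS, and 0.09 and 0.10 for YY1, with no test made.

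One promoter each from complexes II, III and V shows how the letters are placed, with 180 bases running to 30 bases past the start and the matches in capitals. Atp5j, for a subunit of the stalk of ATP synthase, holds all 3 motifs, and Sdhd and Uqcr hold the NRF1 and ETS letters. None of the matches overlap.
Atp5j, chr16:84834947-84835126 (GRCm38.p6), minus strand: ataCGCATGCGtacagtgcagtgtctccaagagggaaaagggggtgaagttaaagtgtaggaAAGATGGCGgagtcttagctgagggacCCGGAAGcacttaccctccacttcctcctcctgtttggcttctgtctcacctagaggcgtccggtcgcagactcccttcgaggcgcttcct
Sdhd, chr9:50603820-50603999 (GRCm38.p6), minus strand: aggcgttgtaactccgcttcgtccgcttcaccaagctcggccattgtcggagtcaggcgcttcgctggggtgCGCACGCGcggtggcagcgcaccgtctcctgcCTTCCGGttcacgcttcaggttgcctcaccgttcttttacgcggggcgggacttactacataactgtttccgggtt
Uqcr, chr10:80406792-80406971 (GRCm38.p6), minus strand: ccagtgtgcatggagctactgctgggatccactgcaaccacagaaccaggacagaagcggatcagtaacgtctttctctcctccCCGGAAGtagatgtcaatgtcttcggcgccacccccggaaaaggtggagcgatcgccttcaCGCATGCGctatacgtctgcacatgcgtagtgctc

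Seen from the start site, the NRF1 letters begin at position -147 in Atp5j, -78 in Sdhd and -5 in Uqcr. These genes differed between mutant and control by 0.16 (SE 0.15), 0.21 (SE 0.13) and 0.12 (SE 0.17). None passed the threshold.

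The subunits encoded by mitochondrial DNA, which lie outside the rule, had mostly negative differences. Of 12 tested, 0 were called, 10 had a negative difference, and the median was -0.35, beside 0.09 for the nuclear members. The limma fit gave 6 of them an unadjusted p under 0.05, where 20.2% of all gene names passed. For 6 the groups did not overlap, all lower in mutants, where 26.3% of all gene names had groups that did not overlap. ND4L, a membrane subunit of complex I, had 4.34, 4.42 and 4.38 in mutants 1 to 3, against 4.83, 5.02 and 5.08 in controls 1 to 3. All mutant arrays were lower, by a difference of -0.60 (SE 0.11, 95% interval -0.87 to -0.33) that missed the threshold (limma, adjusted p = 0.0528) and passed it under 6 of the 22 other fits, all with the same sign. CYTB, the cytochrome b of complex III, had 6.85, 7.01 and 6.84 in mutants 1 to 3, against 7.17, 7.18 and 7.20 in controls 1 to 3 (difference -0.28, SE 0.10, limma adjusted p = 0.187). COX2 and ND6 were the 2 with a positive difference, 0.17 (SE 0.29) and 0.31 (SE 0.30). The median was -0.36 with slide as a block, and 10 of 12 were negative within both slides, where 8102 of 22775 gene names were. These transcripts are cut from shared precursors and are not independent of each other, and the difference between the 2 sets was not tested.

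Over the other lists 3 of 184 tested genes were called, a count near the share of all gene names (2.56%). Of 13 complex I assembly factors 1 was called, 2310030N02Rik (now Ndufaf6), with -1.20, -1.08 and -0.99 in mutants 1 to 3, against -0.41, -0.42 and -0.35 in controls 1 to 3. It fell by 0.70 (SE 0.10, limma adjusted p = 0.0353), and the limma adjusted p was 0.0378 under a slide block. The call was lost with no filter on dim probes (0.0663), with scaling to the median (0.0542), with a replicate block (0.204) and with any single array left out (adjusted p of 0.0563 to 0.163), with the difference between -0.75 and -0.64 in the last. None of 13 assembly factors of complexes II, III and V, 20 of complex IV, 13 genes of the citric acid cycle, 16 carriers and shuttles and 74 mitochondrial ribosome genes were called, and their medians lay between -0.02 and 0.10. The smallest p-values in those lists belonged to 1110058L19Rik (now Sdhaf4, 0.46, limma adjusted p = 0.0744), Sco2 (-0.33, 0.179), Idh3a (-0.35, 0.174), Slc25a13 (0.55, 0.0699) and Mrpl50 (0.65, 0.0909).

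Of 15 regulators of mitochondrial biogenesis 1 was called, Ppargc1b, a coactivator of oxidative genes. Its normalised log2 signal was -4.72, -5.15 and -4.61 in mutants 1 to 3, against -3.98, -3.85 and -3.84 in controls 1 to 3, and it fell by 0.94 (SE 0.16, limma adjusted p = 0.0482). The call was lost with slide as a block (limma adjusted p = 0.0694) and with any single array left out (0.0714 to 0.186). It was also lost with no filter on dim probes (limma adjusted p = 0.0793) and with a replicate block. The same held with a variance trend and robust estimation and with the lowest probe of a gene. The size depended on the background correction: the difference was -0.45 with normexp (limma adjusted p = 0.091), -0.52 with normexp and quantile normalisation (0.0346) and -0.53 in the deposited table (0.039). Among the 8 tested oxidase isoforms that the rule leaves out, 1 was called. This was Cox6a2, the heart and muscle isoform, with -0.24, -0.93 and -0.89 in mutants 1 to 3, against 5.05, 4.90 and 5.25 in controls 1 to 3, a difference of -5.75 (SE 0.22, limma adjusted p = 0.00129). The remaining 7 lay between -0.12 and 0.12. Of the 7 muscle and brown fat markers, Ckm, Myh1, Myh4, Myl1 and Ucp1 did not reach the background filter in either group. The other 2, Cidea and Acta1, had a median difference of 0.70 and a summed relative signal of 0.418 to 0.584 in mutants, against 0.255 to 0.313 in controls, and neither was called.

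**Figure D5:**
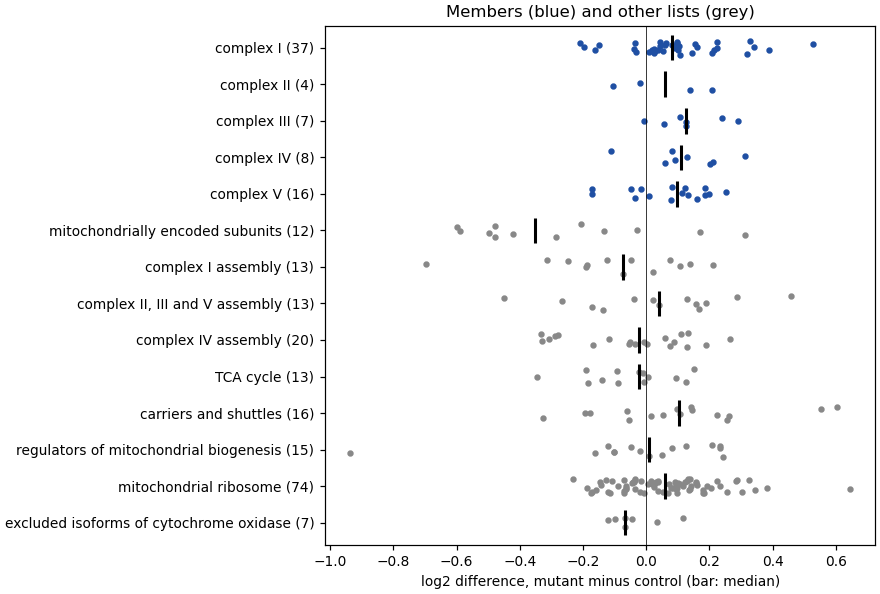
Log2 difference, mutant minus control, of each gene (points) with the median of its list (bars), for the members by complex in blue and the other lists in grey, the number of genes in brackets. Cox6a2, at -5.75, is not drawn. The 5 complexes have medians of 0.06 to 0.12 and the mitochondrially encoded subunits one of -0.35.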

How the data were processed

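Total RNA from islets was labelled with Cy3 (150 ng per sample) and hybridised to Agilent mouse arrays. Per the file headers, the deposited scanner files were written by Agilent Feature Extraction 10.7.3.1. They give spot intensity values, background-corrected within the array and unscaled between arrays, and flags (other values) for saturation and for signal well above background. The authors also deposited an equalized intensity table, whose method is not given in the sources used here. The medians of its columns over probes were 252 to 259, and it was used as an alternative. Coordinates of probes are in mm9, as in the files.

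Log2 intensities were averaged per probe, and the value at the 75th percentile was then taken off each array. Probes entered the test when well above background on all arrays of 1 group or both. The brightest such probe stood for its gene name, which gave 22775 names. Files were read with the data.table package (version 1.17.8). Mutant and control arrays entered a two-sided limma fit (version 3.58.1, R 4.3.3, lmFit and eBayes), and the threshold was a Benjamini-Hochberg adjusted p of 0.05. The fit was tested on simulated data. Signal over background takes the place of depth, and 3 arrays per group limit the precision. The values of 1 member are not reported here singly. The members' probes had 0 saturated pixels. Symbols were matched to RefSeq by accession for 100 member probes and by symbol for 2, and 5 member names have since changed. The members and the lists of other genes were chosen with earlier results of these data known. Members with all 6 values in the text are, per complex, those with the smallest p-values, the highest mean signal and the largest differences in each direction, and others were named after their values were seen. Samples with the same replicate number are not labelled as pairs, so the comparison reported has no block on it. The other settings are normexp background correction, other normalisations, filters and probe choices, slide or replicate number as a block, and arrays left out.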

Additional observations from a re-analysis of the deposited data

How the results depend on the processing

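The count of 0 members called held under every setting that had a test. No test was made within single slides. With a replicate block no gene of any kind was called, so its count of 0 is not particular to the members. The members' median was positive in each setting, with or without a test, except slide as a block with quantile normalisation (-0.03) and within slide 2 (-0.04). It was 0.04 to 0.22 with single arrays left out. The median of complex I was -0.076 within slide 2, and that of complex III was 0.335 without mutants 1 and 2, a setting chosen after seeing the data. Uqcrc1, near zero in the reported comparison, changed sign with scaling to the median (0.021) and with single arrays left out, where it ran between -0.06 (without control 2) and 0.068 (without control 1), and Cox5a without mutants 1 and 2 (0.077). Within single slides, Uqcrc1 was 0.172 and Cox7b -0.033 on slide 2, and Atp5s was 0.166 on slide 1, each against its sign in the reported comparison. With single arrays left out, Cox7b ran between 0.173 and 0.582. The 584 genes called became 1553 at an adjusted p under 0.1, 0 without mutants 1 and 2, and 13 to 424 with single arrays left out, lowest without control 2. The 3 calls in the other lists became 9 at an adjusted p under 0.1, 1 with no filter on dim probes, 7 with normexp and quantile normalisation, 6 in the deposited table, 7 with robust estimation and a variance trend, 0 without mutants 1 and 2, and 1 with any single array left out. Causes were not tested.

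The replicate numbers 1 to 3 are used in mutants and controls alike, and the labels do not say that they pair samples. Deviations of same-numbered samples correlated across genes at -0.23, -0.19 and -0.03, and such samples lay on different slides. A block on the replicate number gave 0 genes called, 0 members called and 0 calls in the other lists, with 3196 genes at an unadjusted p under 0.05.

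With 3 arrays per group, the 95% interval reached past 1.5-fold for 19 of 72 members, and for these a difference of that size was not excluded.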

Other observations

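The 3 members on the X chromosome, Ndufa1, Ndufb11 and Cox7b, had the first, second and sixth largest differences of the 72, at 0.53, 0.39 and 0.31, and none passed the threshold. The 885 X-linked gene names tested had a median difference of -0.04, with 45.3% positive. Without these 3, the other 69 members had a median of 0.09 and 53 positive differences. All 3 X-linked members were also higher on slide 1 than on slide 2. With slide as a block, Ndufa1, Ndufb11 and Cox7b differed by 0.36, 0.24 and 0.08. The third Ndufb11 probe gave 0.04. The grouping by chromosome was not among the planned comparisons.

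The mitochondrial ribosome genes, which are nuclear as the members are, had all arrays of slide 1 above all arrays of slide 2 in 31.1% of 74 names, beside 69.4% of the members and 13.4% of all gene names.

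Further subunits that the array lists under names outside the rule are Ndufb1 at -0.05 (SE 0.13), Atp5mpl at 0.18 (SE 0.22) and Atp5md at -0.06 (SE 0.16), and none passed the threshold.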
